A study of Mus musculus with 14 samples.

Results

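The sarcomere genes described here are 39 genes of the contractile apparatus of striated muscle, chosen by name and measured by 71 probe sets annotated to 1 of them, of 45101 probe sets in all. RNA came from skeletal muscle precursor cells of C57BL/6 mice, sorted from dissociated muscle as lacking CD45, Ter119 and Sca-1 and carrying CD29 and Cxcr4, and was hybridized to Affymetrix mouse arrays. There were 5 arrays at 2 months of age (young), 4 at 12 months (middle-aged) and 5 at 24 months (aged), and no label names a treatment or a genetic change. Whether the arrays are separate animals is not in the labels, so the p-values measure the spread between these arrays, which may be partly technical.

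The sarcomere is the repeating unit of the myofibril, in which myosin heavy chains with their light chains pull on actin filaments when calcium binds troponin C and moves troponin I, troponin T and tropomyosin. Most of these proteins come as isoforms from separate genes: fast fibres, slow fibres, the heart and embryonic muscle each use a different set, and regenerating or newly fused muscle again makes embryonic and cardiac-type isoforms. Satellite cells, the stem cells of muscle that the sort enriches, are not contractile, and their differentiated progeny and the fibres themselves are the usual source of these transcripts. By textbook assignment, 11 members were grouped as fast, 8 as slow (several of which are also cardiac), 3 as embryonic or neonatal, 2 as cardiac-type and 15 as shared by fibre types.

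Values are log2 of the deposited intensity of a probe set, and the level of one probe set was not compared with that of another. Of the 71 probe sets, 56 passed a filter on dim signal, which asks for 4 arrays above the array's own 40th percentile (between 3.79 and 3.96), and each gene was represented by such a probe set with the highest mean. By this filter 35 of the 39 genes were tested. Myh2, the heavy chain of fast oxidative fibres, Myh8, the neonatal heavy chain, Neb, the giant thin-filament protein nebulin, and Mybph, a myosin-binding protein, were not. Myh8 lay below the 40th percentile on all 14 arrays (2.56 to 3.11). Neb ran from 2.91 to 3.67 on young, from 2.82 to 3.67 on middle-aged and from 3.29 to 5.41 on aged arrays, with 3 aged arrays above the percentile, and Myh2 and Mybph were above it on 3 and 2 arrays.

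The promoter sequences of 30 members were in the RefSeq table (GRCm38.p6), as a window of 300 bases, 250 before the transcription start and 50 after. The 250 bases before the start of Myh4, a fast heavy chain (chr11:67237562-67237811, plus strand), of the troponin C pair, fast Tnnc2 (chr2:164779735-164779984, minus strand) and slow Tnnc1 (chr14:31208062-31208311, plus strand), and of cardiac actin Actc1 (chr2:114052876-114053125, minus strand) are shown because these genes stand for the fast, slow and cardiac-type classes compared below. Capitals mark matches on either strand to the MEF2 site, the CArG box (the binding site of serum response factor), the E-box CANNTG and the motif MCAT, CATTCC.
Myh4: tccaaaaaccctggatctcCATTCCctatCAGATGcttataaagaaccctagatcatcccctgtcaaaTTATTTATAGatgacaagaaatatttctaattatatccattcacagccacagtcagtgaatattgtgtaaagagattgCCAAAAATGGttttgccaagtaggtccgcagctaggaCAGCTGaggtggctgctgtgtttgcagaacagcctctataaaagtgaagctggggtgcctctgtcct
Tnnc2: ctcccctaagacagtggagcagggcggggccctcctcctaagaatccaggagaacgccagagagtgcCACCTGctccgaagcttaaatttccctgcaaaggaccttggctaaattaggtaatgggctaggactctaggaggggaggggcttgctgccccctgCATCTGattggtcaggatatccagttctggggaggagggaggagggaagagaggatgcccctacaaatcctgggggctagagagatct
Tnnc1: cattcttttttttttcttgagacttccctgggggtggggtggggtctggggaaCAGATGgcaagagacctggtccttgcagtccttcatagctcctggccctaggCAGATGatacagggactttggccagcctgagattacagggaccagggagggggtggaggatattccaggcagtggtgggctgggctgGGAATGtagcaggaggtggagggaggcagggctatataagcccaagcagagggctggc
Actc1: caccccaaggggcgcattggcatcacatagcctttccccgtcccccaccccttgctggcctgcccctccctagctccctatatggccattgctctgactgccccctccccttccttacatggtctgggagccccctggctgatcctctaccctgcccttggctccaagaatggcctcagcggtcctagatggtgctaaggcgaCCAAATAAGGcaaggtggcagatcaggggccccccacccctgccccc
The Myh4 stretch held each of the 4 motifs, with the CArG box from 104 to 95 bases before the start, and Actc1 held a CArG box from 47 to 38 bases before it. Over the full windows, a CArG box lay in 6 of 30 members (20%) against 1.57% of the 27025 promoters in the table, and a MEF2 site in 5 (16.7%) against 3.26%. The motif CATTCC lay in 12 (40%) against 14.6%, and an E-box in 26 (86.7%) against 72.1%. Tnnc2 and Tnnc1 each held a pair of E-boxes, and of the 2 only Tnnc1 held CATTCC. Among the 10 members with a window that rose in aged cells (below), 3 held a CArG box, 2 a MEF2 site, 6 CATTCC and 8 an E-box. Among the other 20 these counts were 3, 3, 6 and 18. A match is a description of the letters and no evidence of binding.

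Precursor transcripts were present at each age. Pax7, the transcription factor of satellite cells, ran from 8.91 to 9.90 on young, from 8.90 to 9.68 on middle-aged and from 8.39 to 9.65 on aged arrays, and both sort genes, Itgb1 and Cxcr4, were above the 40th percentile throughout. Ptprc, which encodes CD45, was below it on all 14 arrays, at 2.97 to 3.44. Of 7 cardiomyocyte markers, Nppa, Myh6, Ryr2 and Myl7 did not pass the filter, and the mean of the other 3 (Tnni3, Nppb and Mybpc3) ran from 3.86 to 4.34. The arrays also parted, at equal age, along a component that held 31.6% of the age-centred variance of all genes other than the sarcomere genes. On it 8 arrays lay opposite 6. Set 1 is arrays 1, 3 and 4 of the young, 2, 3 and 4 of the middle-aged and 1 and 2 of the aged; set 2 is arrays 2 and 5 of the young, 1 of the middle-aged and 3, 4 and 5 of the aged. No label names these sets, and values within them are given beside the results.

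Between 2 and 24 months, 8 of 10 tested fast sarcomere genes rose and 1, Actn3, fell, while 0 of 8 slow genes passed the test and embryonic and cardiac-type genes varied from array to array. In aged against young cells 13 of the 35 tested genes rose and 1 fell (limma, Benjamini-Hochberg adjusted over 13579 genes), where 3.05% of all tested genes rose and 1.25% fell. The calls were 8 higher and 1 lower of 10 fast genes and 5 higher of 13 shared genes. There were 0 calls of 8 slow, 0 of 2 embryonic and 0 of 2 cardiac-type genes. Of the slow genes, 3 (37.5%) were higher and 0 lower at an unadjusted p under 0.05 by limma, against 8.63% and 7.95% of all genes. The change was positive for 7 of the 8 slow genes, against 5686 of 13579 genes in all. The median log2 change was 2.18 for fast, 0.52 for slow and 1.02 for shared genes, 0.86 over all 35 and -0.05 over all genes tested. The young and aged arrays did not overlap for 11 members that were higher and 1 that was lower with age, against 3.48% and 1.97% of all genes. At the level of probe sets, 18 of the 56 were called higher and 1 lower, where 2.21% and 0.888% of all 23887 probe sets were.

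**Figure D1:**
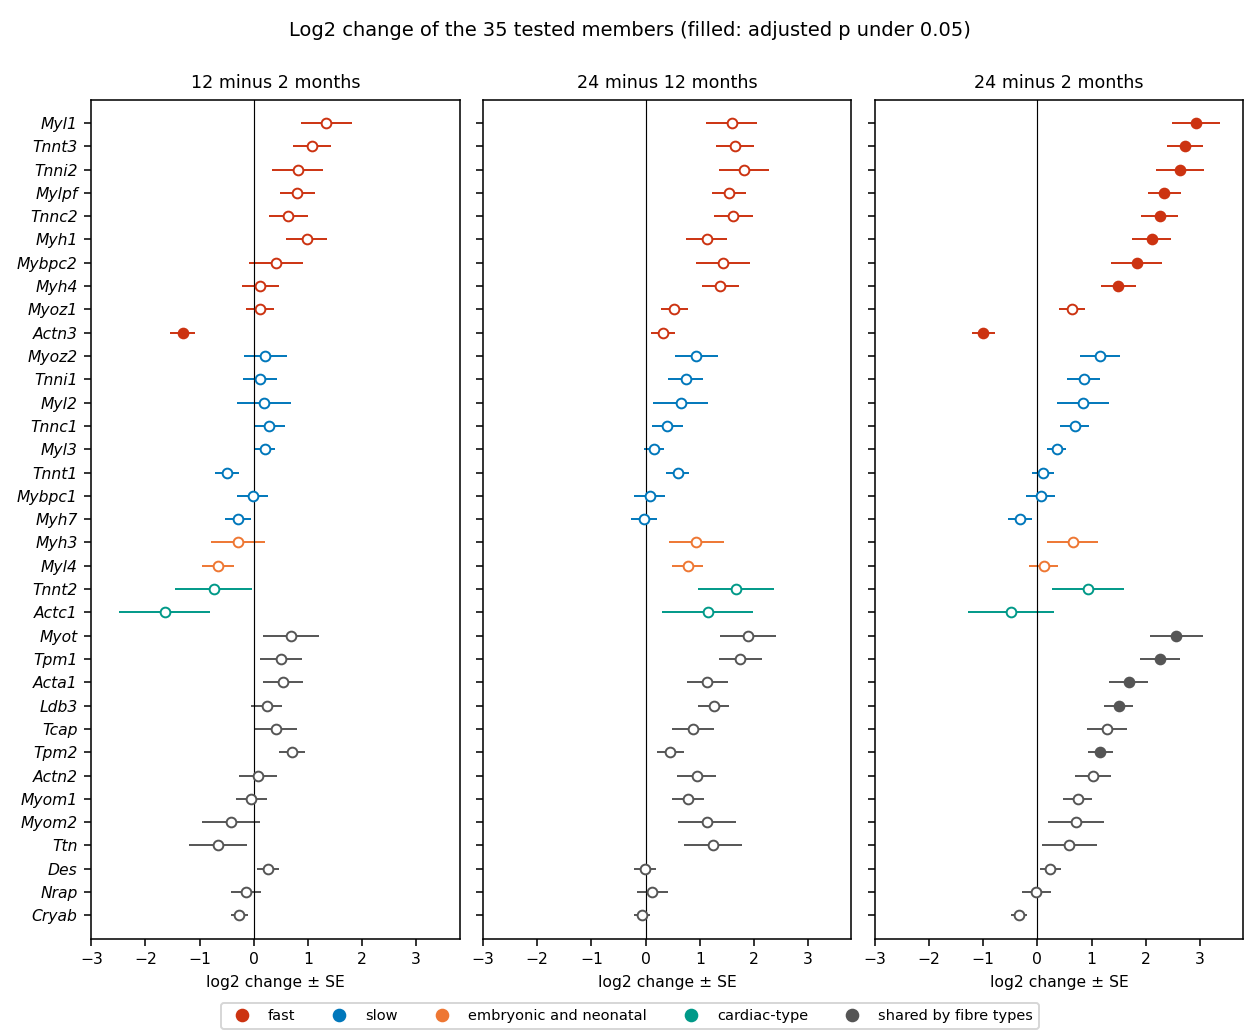
Log2 change with limma's standard error for the 35 tested sarcomere genes, by class, for 12 minus 2, 24 minus 12 and 24 minus 2 months; filled points passed the test at an adjusted p under 0.05. The 13 higher calls in 24 minus 2 months lie among fast and shared genes, and Actn3 is the filled point below 0 in the first and last panels.

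All 3 fast troponin subunits rose. Tnnt3, the fast troponin T that ties troponin to tropomyosin, stood at 6.37, 5.33, 6.54, 6.32 and 5.89 on young arrays 1 to 5, at 7.18, 6.59, 8.07 and 6.80 on middle-aged arrays 1 to 4, and at 8.02, 8.36, 9.07, 9.07 and 9.55 on aged arrays 1 to 5. Each middle-aged value lay above each young one, and the lowest aged value lay just below the highest middle-aged one. The rise from young to aged was 6.61-fold (log2 2.73 ± 0.33 SE, adjusted p = 0.000328). Tnni2, the fast inhibitory subunit, stood at 6.71, 5.82, 6.78, 6.29 and 5.30 on young, 7.31, 6.14, 7.88 and 6.64 on middle-aged and 7.45, 8.38, 8.95, 9.19 and 10.06 on aged arrays. It rose 6.18-fold (2.63 ± 0.44, adjusted p = 0.0028), with young and middle-aged arrays intermixed and all aged arrays above the young. Tnnc2, the fast calcium-binding subunit, went from 9.60, 8.08, 9.31, 9.19 and 8.60 on young through 9.51, 8.80, 10.40 and 9.66 on middle-aged to 10.51, 10.89, 11.31, 11.29 and 12.05 on aged arrays. Its rise was 4.78-fold (2.26 ± 0.34, adjusted p = 0.00126), and every aged array lay above every other array.

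The slow troponin partners gave smaller changes from young to aged. Tnnt1, slow troponin T, stood at 7.97, 8.51, 8.28, 7.81 and 8.53 on young, 8.03, 7.47, 7.39 and 8.02 on middle-aged and 7.80, 8.38, 8.70, 8.20 and 8.51 on aged arrays. Young and aged values of Tnnt1 covered nearly the same range, and the log2 difference was 0.10 ± 0.20 (adjusted p = 0.862). Tnni1, slow troponin I, had 0.86 ± 0.30 (adjusted p = 0.142) and ran from 4.47 to 5.53 on young and from 5.39 to 6.65 on aged arrays, with aged array 3 highest. Tnnc1, the troponin C of slow fibres and heart, had 0.69 ± 0.27 (adjusted p = 0.203), and young array 1 (5.22) stood inside the aged range of 4.63 to 5.68.

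**Figure D2:**
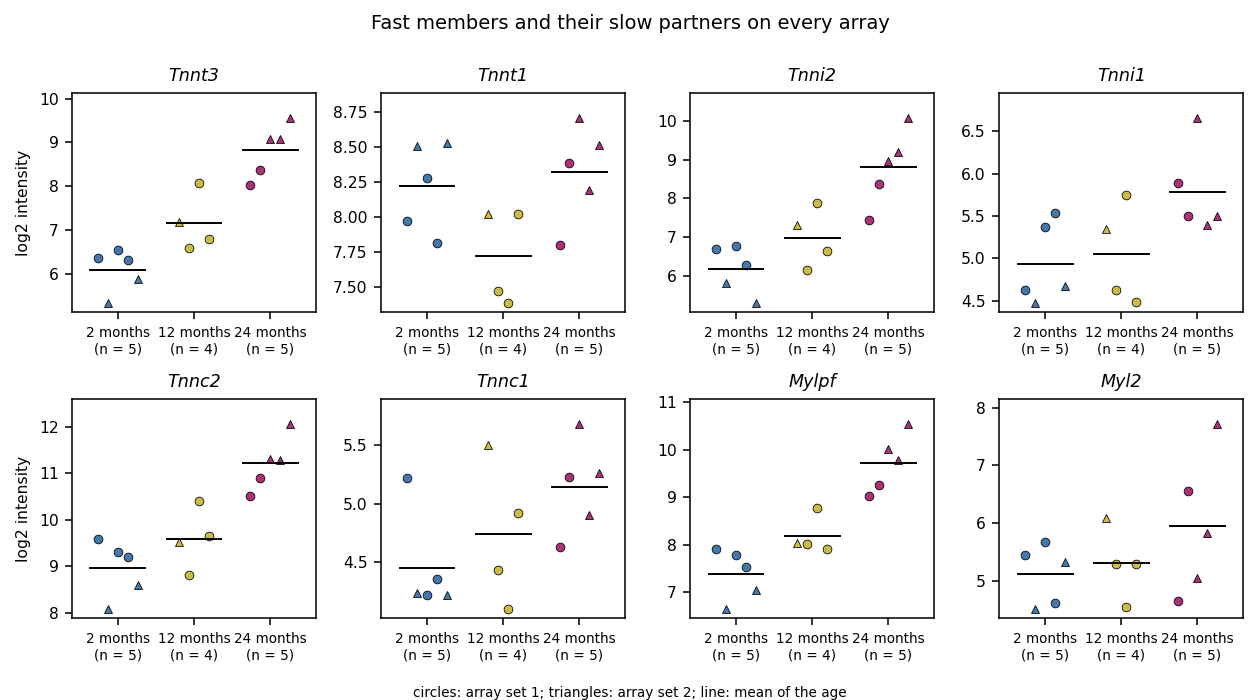
Log2 intensity of the fast genes Tnnt3, Tnni2, Tnnc2 and Mylpf and of their slow partners Tnnt1, Tnni1, Tnnc1 and Myl2 on each array, by age, with the mean of each age as a line; circles are set 1 and triangles set 2, and each panel has its own axis. The aged arrays lie above all young arrays in the 4 fast panels and overlap them in the 4 slow panels.

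Of the myosin light chains, both fast forms rose. Myl1, the essential light chain of fast fibres, stood at 5.76, 5.53, 6.77, 5.76 and 5.53 on young, 7.19, 6.28, 8.23 and 7.13 on middle-aged and 7.20, 8.38, 9.57, 9.36 and 9.49 on aged arrays. Its rise of 7.61-fold (2.93 ± 0.44, adjusted p = 0.00125) was the largest among the members, with young array 3 the highest of its age and aged array 1 the lowest of its own. Mylpf, the fast regulatory light chain, stood at 7.92, 6.64, 7.79, 7.53 and 7.04 on young, 8.04, 8.004, 8.78 and 7.91 on middle-aged and 9.02, 9.25, 10.02, 9.78 and 10.54 on aged arrays. It rose 5.07-fold (2.34 ± 0.30, adjusted p = 0.000457), with the aged arrays above both other ages. Of the slow light chains, Myl2 had 0.84 ± 0.48 (adjusted p = 0.417), carried by aged arrays 5 (7.71) and 2 (6.56), while aged array 1 (4.66) lay within the young range of 4.51 to 5.68. Myl3 had 0.36 ± 0.18 (adjusted p = 0.325) by its chosen probe set.

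Both tested fast heavy chains, Myh1 and Myh4, rose. The genes Myh3, Myh2, Myh1, Myh4 and Myh8 are consecutive protein-coding genes in the RefSeq table and close in sequence, so their probe sets may share signal. Myh1, the heavy chain of fast 2X fibres, stood at 5.82, 5.31, 5.98, 6.20 and 6.85 on young, 7.45, 6.36, 7.09 and 7.15 on middle-aged and 8.40, 6.93, 8.08, 8.16 and 9.14 on aged arrays. It rose 4.32-fold (2.11 ± 0.36, adjusted p = 0.00282), although aged array 2 was only just above young array 5. Myh4, the heavy chain of the fastest fibres, stood at 6.47, 5.50, 6.23, 6.59 and 5.36 on young, 5.57, 5.44, 7.04 and 6.54 on middle-aged and 6.93, 7.51, 7.84, 7.66 and 7.68 on aged arrays. Middle-aged values of Myh4 were mixed with the young, and it rose 2.82-fold (1.49 ± 0.32, adjusted p = 0.0138). Myh7, the slow and cardiac heavy chain, had -0.32 ± 0.22 (adjusted p = 0.516) and was above the 40th percentile on 4 young arrays, no middle-aged array and aged array 2 (4.73).

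Of the remaining fast genes, Mybpc2, the fast myosin-binding protein C, stood at 5.64, 4.05, 5.41, 5.61 and 4.12 on young, 4.15, 4.93, 6.62 and 5.80 on middle-aged and 5.63, 7.13, 6.76, 6.96 and 7.52 on aged arrays. Young and aged arrays overlapped at 5.63 to 5.64, and it rose 3.56-fold (1.83 ± 0.47, adjusted p = 0.0386). That call was lost when any of 8 arrays was left out (young 2, 3 or 5, middle-aged 4, aged 2, 3, 4 or 5; adjusted p = 0.0506 to 0.0915). It was also lost with the replicate number as a block (adjusted p = 0.0509), with no filter (0.0595) and with the RNA integrity covariate described for Actn3 below (0.0724). Mybpc1, its slow counterpart, had 0.06 ± 0.27. Myoz1, which binds calcineurin at the Z-disc of fast fibres, had 0.65 ± 0.24 (adjusted p = 0.166) and Myoz2, of slow fibres and heart, 1.15 ± 0.37 (adjusted p = 0.103). Myoz2 was at 4.41 and 4.74 on aged arrays 1 and 3, within the young range of 3.81 to 4.97, and at 6.38, 6.24 and 6.14 on aged arrays 2, 4 and 5. Without aged array 1 it passed (1.45 ± 0.33, adjusted p = 0.026).

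Actn3, the alpha-actinin that crosslinks actin at the Z-disc of fast fibres, went the other way, and had done so by 12 months. It stood at 11.17, 10.29, 11.20, 11.40 and 10.45 on young, 9.21, 9.56, 9.54 and 10.05 on middle-aged and 9.92, 9.88, 9.97, 9.84 and 9.93 on aged arrays. All 9 older arrays lay below all 5 young ones, and the aged arrays spanned only 9.84 to 9.97. The fall was 2.00-fold in aged cells (log2 -0.996 ± 0.212, adjusted p = 0.0129), and at 12 months the log2 change was -1.31 ± 0.23 (adjusted p = 0.00514). The aged call was lost when a measure of RNA integrity, the log2 signal at the 3' end minus that at the 5' end of Gapdh and Actb, entered as a covariate (-0.72 ± 0.25, adjusted p = 0.129), and that difference went from 4.31 ± 0.54 (SD, n = 5) through 3.85 ± 0.25 (n = 4) to 3.54 ± 0.51 (n = 5) with age. Young Actn3 was highest on the set 1 arrays, and the aged minus young difference was -1.36 within set 1 and -0.46 within set 2. Actn2, the alpha-actinin of all fibres and heart, had 1.03 ± 0.34 (adjusted p = 0.11). Its young values were 5.43, 4.38, 6.64, 5.32 and 4.70 and its aged values 6.05, 6.39, 6.09, 6.49 and 6.58, so that young array 3 alone reached the aged values, as the highest of the 14 arrays, and without it Actn2 passed (1.36 ± 0.25, adjusted p = 0.01).

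**Figure D3:**
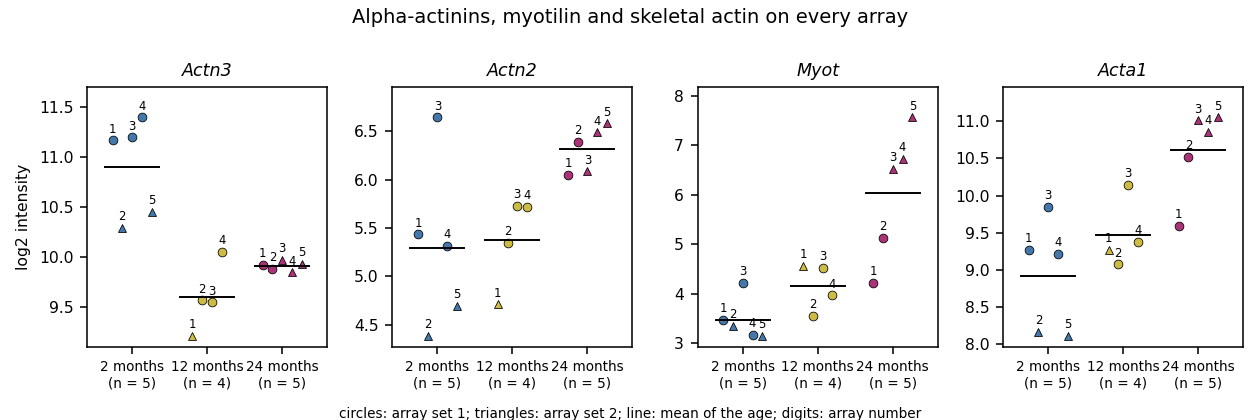
Log2 intensity of Actn3, Actn2, Myot and Acta1 on each array, by age, with array numbers and the mean of each age; circles are set 1, triangles set 2, and each panel has its own axis. All middle-aged and aged Actn3 values lie below the young values, while Myot and Acta1 reach their highest values on aged arrays of set 2.

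Among the 13 tested genes shared by fibre types, 5 rose: Myot, Acta1, Tpm1, Tpm2 and Ldb3. Without probe sets whose ID marks several transcripts or shared sequence, 9 were tested and 2 rose. Myot, which encodes the Z-disc protein myotilin, stood at 3.47, 3.34, 4.22, 3.16 and 3.14 on young, 4.56, 3.55, 4.51 and 3.96 on middle-aged and 4.22, 5.12, 6.53, 6.72 and 7.57 on aged arrays, and rose 5.92-fold (2.56 ± 0.49, adjusted p = 0.00683). As 4 of 5 young values lay below the 40th percentile, the fold is not an exact value, and aged array 1 lay level with young array 3 (4.22). Acta1, skeletal alpha-actin, stood at 9.27, 8.17, 9.85, 9.21 and 8.11 on young, 9.27, 9.07, 10.14 and 9.37 on middle-aged and 9.59, 10.52, 11.01, 10.86 and 11.05 on aged arrays, a rise of 3.21-fold (1.68 ± 0.35, adjusted p = 0.012) in which young array 3 and aged array 1 overlapped. Tropomyosins lie along actin and block the myosin sites at rest. Tpm1, the alpha form, stood at 8.29, 6.93, 8.74, 8.10 and 7.88 on young, 8.58, 7.62, 9.17 and 8.62 on middle-aged and 9.23, 9.96, 10.84, 10.58 and 10.62 on aged arrays, with the aged arrays above all others. It rose 4.79-fold (2.26 ± 0.37, adjusted p = 0.00216). Tpm2, the beta form, stood at 7.995, 7.58, 8.80, 8.43 and 8.29 on young, 8.37, 8.86, 9.49 and 8.98 on middle-aged and 9.47, 9.35, 9.66, 9.12 and 9.32 on aged arrays. Of its middle-aged values 1 lay within the young range, 1 within the aged range and 2 between, and it rose 2.24-fold (1.16 ± 0.23, adjusted p = 0.00838). Ldb3, which encodes the Z-disc protein ZASP, stood at 5.29, 4.73, 4.82, 4.92 and 4.77 on young, 5.33, 4.47, 5.99 and 4.81 on middle-aged and 6.33, 5.89, 6.13, 6.62 and 7.07 on aged arrays. The aged arrays lay above the young, and the rise was 2.83-fold (log2 1.502 ± 0.268, adjusted p = 0.00465). With the 3' minus 5' covariate the calls of Acta1 (1.57 ± 0.46, adjusted p = 0.0765) and Myot (1.75 ± 0.53, adjusted p = 0.0861) were lost.

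The other shared genes did not pass. Tcap, which caps titin at the Z-disc, stood at 5.46, 5.52, 5.04, 5.67 and 5.32 on young, 6.33, 5.35, 6.21 and 5.37 on middle-aged and 6.09, 6.32, 5.75, 7.12 and 8.14 on aged arrays. Every aged value of Tcap lay above every young one, with a difference of 1.28 ± 0.37 (adjusted p = 0.0643), and it passed without aged array 3 (1.52 ± 0.36, adjusted p = 0.0271). Ttn, the giant spring titin, had 0.59 ± 0.51, and its 4 kept probe sets gave 0.35 to 0.59. The M-band genes Myom1 and Myom2, which link thick filaments, had 0.74 ± 0.27 and 0.71 ± 0.51. Myom1 stood at 6.05, 5.35 and 5.99 on aged arrays 3, 4 and 5 but at 4.55 and 4.72 on aged arrays 1 and 2, within the young range of 4.48 to 4.89. Des, the intermediate filament desmin, Nrap, a scaffold of nascent myofibrils, and Cryab, a small heat shock protein that protects filaments, had 0.24 ± 0.19, -0.02 ± 0.26 and -0.34 ± 0.15.

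Several genes were read by more than 1 probe set. Of 14 members with at least 2 kept probe sets, 10 had 1 sign in aged against young cells, and Mybpc1, Myl4, Cryab and Des had both. For Tpm1 the probe set that was called gave 2.26, while the other kept ones gave 0.34 ± 0.18 and 0.12 ± 0.33. For Tpm2, 3 probe sets were called, at 1.16, 1.47 and 2.58, and the fourth gave 0.19 ± 0.17. The called probe sets of both genes carry an ID for several transcripts or for shared sequence. Neither gene was called when such probe sets were left out. The second probe set of Des gave -0.84 ± 0.28 (limma adjusted p = 0.141 over probe sets), against 0.24 for the first. For Myl3 the 2 kept probe sets of shared sequence gave 1.58 ± 0.44 (adjusted p = 0.0715) and 0.47 ± 0.19 (adjusted p = 0.238). The chosen probe set of Myl3 gave 0.36. Both kept probe sets of Myh1 (2.11 and 2.24), of Tnni2 (2.63 and 1.78) and of Ldb3 (1.502 and 0.807) were called higher.

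Over all 14 arrays, embryonic and cardiac-type isoforms gave 0 calls, and they were high on a few arrays, some of which were shared between genes. With 2 genes tested in each class, the medians were -0.48 (embryonic) and -1.19 (cardiac-type) in middle-aged against young cells. They were 0.86 and 1.41 in aged against middle-aged cells, and 0.38 and 0.22 in aged against young cells. Myh3, the embryonic heavy chain, stood at 4.73, 3.90, 4.27, 4.23 and 3.84 on young, 3.73, 3.95, 3.73 and 4.20 on middle-aged and 6.05, 3.98, 6.57, 4.03 and 3.56 on aged arrays. Tnnt2, the troponin T of heart and embryonic muscle, stood at 4.20, 2.92, 4.33, 4.47 and 4.18 on young, 3.12, 3.25, 3.78 and 2.98 on middle-aged and 6.94, 3.99, 7.05, 3.87 and 2.92 on aged arrays. Aged arrays 1 and 3 were thus the highest of the 14 for both genes, while aged arrays 2, 4 and 5 lay within or below the young range. Neither difference passed (Myh3 0.65 ± 0.47, adjusted p = 0.549; Tnnt2 0.93 ± 0.67, adjusted p = 0.538). The second kept probe set of Tnnt2 gave 1.12 ± 0.71. Aged array 1 belongs to set 1 and aged array 3 to set 2.

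Actc1, the cardiac actin that developing skeletal muscle also makes, had the widest spread of young values among these genes. It stood at 8.29, 5.38, 9.78, 9.27 and 6.63 on young, 5.24, 5.77, 7.20 and 6.72 on middle-aged and 6.11, 7.22, 9.71, 6.85 and 7.01 on aged arrays. Young arrays 1, 3 and 4 (set 1) and aged array 3 were high, and the log2 difference of -0.49 ± 0.79 (adjusted p = 0.817) did not pass. Within set 1 Actc1 fell in aged (-2.45 ± 0.50, adjusted p = 0.0231) and in middle-aged cells (-2.55 ± 0.45, adjusted p = 0.0117), while within set 2 the aged minus young difference was 1.85. Myog, the transcription factor of myogenic differentiation, was also highest on young arrays 3 (9.82), 4 (9.14) and 1 (8.66), with 8.52 on aged array 3 and 5.45 and 6.64 on young arrays 2 and 5. Myl4, the atrial and embryonic light chain, ran from 5.09 to 6.01 on young, 4.54 to 5.14 on middle-aged and 5.14 to 6.78 on aged arrays. Aged array 3 was the highest, and the difference was 0.11 ± 0.27.

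**Figure D4:**
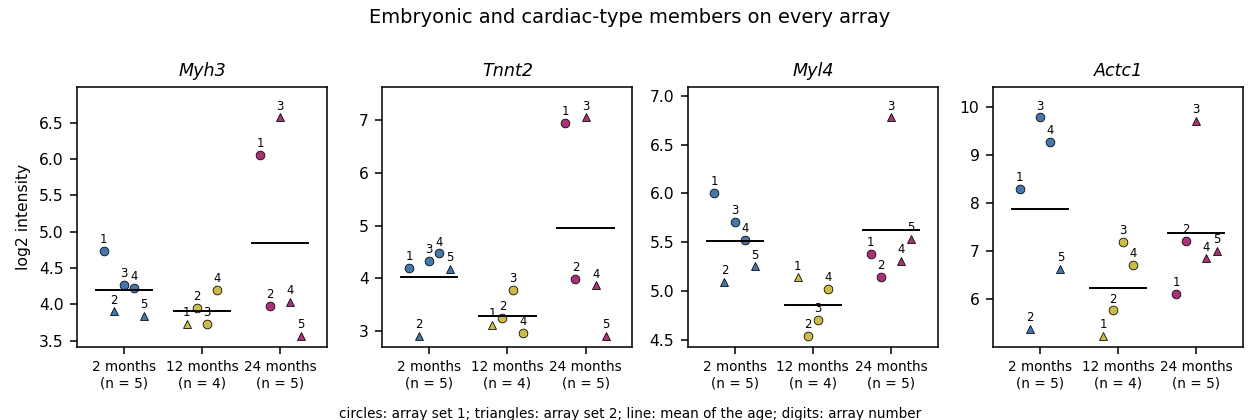
Log2 intensity of the embryonic and cardiac-type genes Myh3, Tnnt2, Myl4 and Actc1 on each array, by age, with array numbers and the mean of each age; circles are set 1, triangles set 2, and each panel has its own axis. Aged arrays 1 and 3 stand above the other aged arrays for Myh3 and Tnnt2, and aged array 3 does so for Myl4 and Actc1.

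The balance between isoforms was read within each array as the log2 difference between partner genes, of which only the shift with age is given, with no test. Of 14 listed pairs 13 could be formed. In 11 the first, fast or skeletal, partner shifted upward more from young to aged. In 5 of these the young and aged arrays did not overlap, nor did they for Actn3 minus Actn2. Every first gene but Myoz1 was already called above, and Tnnt3, Myl1 and Myh1 recur among the pairs, so these counts are not separate results. No share over other gene pairs was taken. The Tnnt3 minus Tnnt1 difference shifted by 1.56 between young and middle-aged and by 2.63 between young and aged arrays. The shifts from young to aged were 2.57 for Myl1 minus Myl3, 1.77 for Tnni2 minus Tnni1, 1.57 for Tnnc2 minus Tnnc1 and 1.502 for Mylpf minus Myl2. The size of the Myl1 minus Myl3 shift depends on the chosen Myl3 probe set (0.36), as another kept one rose by 1.58. Against developmental partners, Myl1 minus Myl4 shifted by 2.82 and Acta1 minus Actc1 by 2.17, the latter as much by 12 months (2.18). At 12 months Acta1 itself changed by 0.54 ± 0.38 and Actc1 by -1.64 ± 0.84, and neither passed. Acta1 minus Actc1 ran from -0.06 to 2.79 on young and from 1.30 to 4.05 on aged arrays, which overlap. Myoz1 minus Myoz2 (-0.51) and Actn3 minus Actn2 (-2.02) moved in the opposite direction.

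**Figure D5:**
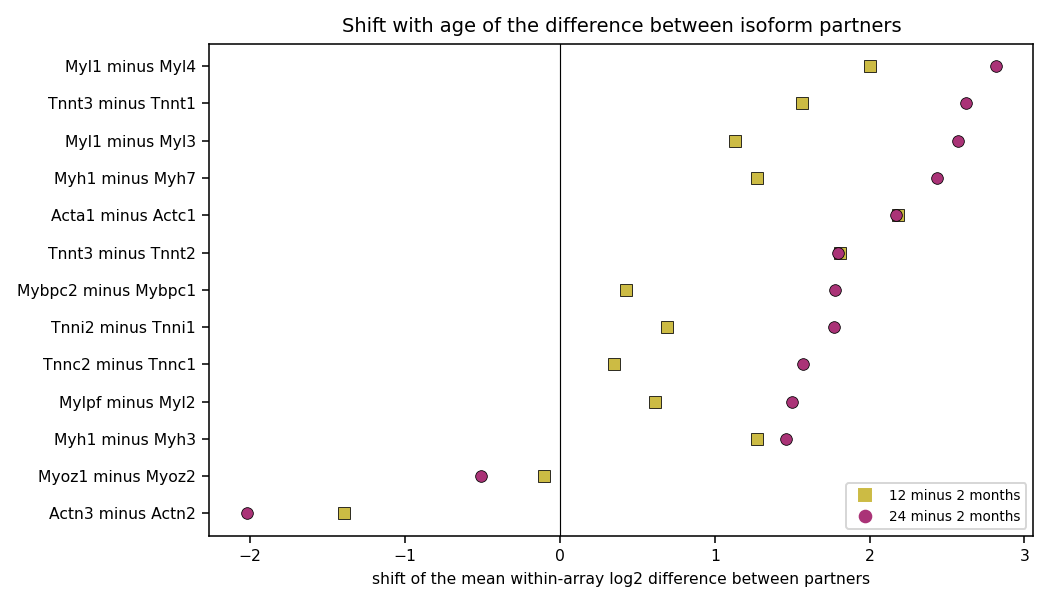
Shift of the mean within-array log2 difference between partner genes, from 2 to 12 months (squares) and from 2 to 24 months (circles), for 13 pairs. Shifts lie right of 0 for 11 pairs at 24 months and left of 0 for Myoz1 minus Myoz2 and Actn3 minus Actn2.

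In middle-aged against young cells 0 of the 35 genes rose and only Actn3 fell, where 1.75% of all genes rose and 1.22% fell, and 5 members were higher and 3 lower at an unadjusted p under 0.05 by limma, as were 6.4% and 9.93% of all genes. One of these, Tnnt3, had middle-aged arrays that lay entirely above the young (1.07 ± 0.35, adjusted p = 0.125), as 3.62% of all genes did; 5.07% lay entirely below, as Actn3 did. The median was 0.72 for fast, 0.15 for slow and 0.24 for shared genes. Both comparisons share the young arrays. With the replicate number as a block Myh1 was called higher at 12 months (1.21 ± 0.17, limma adjusted p = 0.0103), and with array weights Tpm2 was (0.76 ± 0.21, adjusted p = 0.0361). Of all genes, 1.43% and 8.49% were called in either direction in these settings, against 2.97% with age alone.

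In aged against middle-aged cells no gene of the 13579 passed by limma (0% called), nor did any in the late minus early step, so the steps were not shown to differ. At an unadjusted p under 0.05, 21 of the 35 members were higher and 0 lower in aged against middle-aged cells, where 6.38% of all genes were higher. Of the 20 genes with the greatest rise in log2 among all those tested, 8 were sarcomere genes: Myot (1.88 ± 0.52), which ranked first, Tnni2 (1.82 ± 0.47), second, Tpm1, Tnnt2, Tnnt3, Tnnc2, Myl1 and Mylpf. Tnnt2 was below the 40th percentile on all 4 middle-aged arrays and high on aged arrays 1 and 3 alone, so its place in this order is not exact. The adjusted p of these 8 ran from 0.242 (Mylpf and Tnnt3) to 0.472 (Tnnt2). In aged against young and in middle-aged against young cells 0 members were among the 20 greatest rises. The median of this later step was 1.48 for fast, 0.50 for slow and 0.95 for shared genes, against 0.01 over all genes. Middle-aged and aged arrays did not overlap for Mylpf, Tnnc2, Tpm1, Actn2 and Myl4, which were higher, and for 0 that were lower, where 1.41% and 1.08% of all genes did so. For the late minus early step 3 members (8.57%) were higher and 0 lower at an unadjusted p under 0.05, a share near the 7.65% of all genes that were higher.

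The change with age was also read within each array set, and the difference between the sets was not tested. The median of the 35 genes in aged against young cells was 0.52 within set 1 and 1.54 within set 2, and that of fast genes 1.33 and 3.11. Within set 1, 3 members rose, Myh1, Mylpf and Tnnt3, and 2 fell, Actn3 and Actc1. Within set 2, 10 rose and 0 fell. Of all genes, 5.17% were called in either direction within set 1 and 0.155% within set 2. Set 1 has 3 young and 2 aged arrays and set 2 has 2 young and 3 aged, so a missing call within a set is no sign that a gene did not change. Acta1 differed by 0.61 and 2.83, Myl1 by 1.69 and 3.94 and Myot by 1.05 and 3.70 within sets 1 and 2. With the set as a term in the model 14 members rose and 1 fell, and 7.19% of all genes were called in either direction, against 4.3% without it.

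Marker lists of other cell types were read beside these results. Leukocytes carry CD45, and fibro-adipogenic and many endothelial cells carry Sca-1, so the sort is meant to remove them. All 9 tenocyte markers were measured. Their mean was 6.53 to 7.88 on young, 9.28 to 10.99 on middle-aged and 9.53 to 10.63 on aged arrays, so that it stood as high at 12 as at 24 months, and 8 of the 9 rose at each age against young. Satellite cell markers (12 of 12 measured) had a mean of 9.57 to 9.85 on young and of 9.04 to 9.56 on aged arrays, with 1 lower (Calcr) and 0 higher. Of the 12, 10 changed downward (median -0.42). At an unadjusted p under 0.05 by limma 4 (33.3%) were lower and 0 higher, against 7.95% and 8.63% of all genes. Pericyte and smooth muscle markers (6 of 7 tested) had a mean of 6.75 to 7.17 on young and 7.41 to 8.32 on aged arrays, with 1 higher (Pdgfrb). In aged against young cells 3 of these 6 changed upward and 3 downward. Their median log2 change was 0.30 and the largest 2.77, so the mean does not stand for the whole list. Fibro-adipogenic markers (6 of 7 tested) had 1 higher (Dcn) and 0 lower, with a mean of 10.30 to 10.81 on young and 10.01 to 11.33 on aged arrays. They were split, with 3 changed upward and 3 downward, and 2 higher and 2 lower at an unadjusted p under 0.05 by limma (median 0.06). Endothelial markers (4 of 6 tested) had 1 lower (Tek) and ran from 4.78 to 6.93 on aged arrays with the highest value on aged array 3, and leukocyte markers (5 of 7 tested, 0 called and 0 at an unadjusted p under 0.05 by limma) from 4.45 to 4.80 on all ages apart from aged array 3 (4.32). The part of these cells in the sarcomere results was not tested. In RNA of a sorted pool, more cells that carry fibre transcripts and more such RNA per cell cannot be told apart.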

How the data were processed

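RNA of 14 arrays was analysed: 5 young, 4 middle-aged and 5 aged, as titled. RMA (background correction, normalization between arrays and a summary per probe set) was run by the authors, per the submitters' processing notes. Its version was not given in the sources used here, nor was a genome build. Deposited intensities were linear, with medians of 19.0 to 21.2 per array; log2 was taken here. Platform annotation named genes; probe sets of several genes (932) or none (9160) and 64 controls were left out. The filter was the 40th percentile of each array on at least 4 arrays. 1 model per gene over all arrays, with age as the only factor, was fitted in limma 3.58.1 (R 4.3.3), two-sided, with Benjamini-Hochberg adjustment over 13579 genes and calls at an adjusted p under 0.05; errors of changes are moderated SE. The model was run on simulated data with independent noise for each gene. That run held no array sets, so it does not cover false calls that such sets could give. The members and lists were chosen with earlier results of these data known. All members were named, plus up to 3 genes per other list. Alternatives covered filter, probe set choice, normalization, variance model, weights, RNA quality, array set, replicate number and each array left out. Array data have no counting depth; the number of arrays limits precision. Arrays with the same replicate number did not deviate together (correlations -0.484 to 0.261), so the numbers were not taken as pairs.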

Additional observations from a re-analysis of the deposited data

Results flagged for a closer look

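In 105 combinations of a tested member and an age, 9 single arrays lay far from the rest of their age, by the gap to the nearest array over the whole range; chance gives about 1 in 20. Among fast light chains, Myl1 was 6.77 on young array 3 against 5.53 to 5.76 on the other young arrays, and Mylpf was 8.78 on middle-aged array 3 against 7.91 to 8.04. Among slow genes, Myl3 was 5.89 on middle-aged array 1 against 5.58 to 5.60, Tnnc1 was 5.22 on young array 1 against 4.22 to 4.36, and Mybpc1 was 6.61 on aged array 1 against 7.65 to 7.97. Of the developmental genes, Myl4 was 6.78 on aged array 3 against 5.14 to 5.53, and Tnnt2 was 2.92 on young array 2 against 4.18 to 4.47. Young array 2 was also low for Ttn, at 4.25 against 6.19 to 6.92, and aged array 5 was high for Myom2, at 6.57 against 3.82 to 4.61.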

How the results depend on the processing

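In aged against young cells 13 members rose and 1 fell. The number that rose was 7 without probe sets whose ID marks several transcripts or shared sequence. That left 25 members to test (Myl1, Tnnt3, Myh1 and Acta1 not among them, and Tpm1 and Tpm2 not called). It was 3 within array set 1, which has 5 arrays of these ages. With the 3' minus 5' covariate it was 10, without Mybpc2, Acta1 and Myot. Of all genes, 3.7%, 5.17% and 3.4% were called in either direction in these settings, against 4.3% with age alone. The number that fell was 0 with the 3' minus 5' covariate and within set 2 and 2 within set 1. With each array left out in turn, 12 to 14 rose and 1 fell. In middle-aged against young cells 0 rose and 1 fell, with each array left out too. With array weights 1 rose, and with the replicate block 1 rose, where 8.49% and 1.43% of all genes were called in either direction. The 3' minus 5' covariate gave 2 that fell (Tnnt1 -0.72 ± 0.19, limma adjusted p = 0.0403, besides Actn3), with 5.28% of all genes called. Within set 1, 3 fell (Actc1, Myl4 and Actn3), with 7.1% of all genes called, and within set 2, 0 fell. The share called with age alone was 2.97%. In aged against middle-aged cells and in the late minus early step, 0 members passed in every setting run. The replicate block left 12 that rose in aged against young cells, without Mybpc2, where 3.6% of all genes were called. Of the 14 arrays, 1 correlated best with one of its own number at another age. Of 15 calls of single members, 0 changed sign in any setting, Tnnt3 and Mylpf were called in every setting that tested them, and Mybpc2 was the only one that a single left-out array ended.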

Other observations

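Of 15 tested transcripts of mature fibres outside the sarcomere, 6 rose and 0 fell in aged against young cells (background 3.05% and 1.25%), with a median of 0.27. Those with the smallest p were Eno3, a glycolytic enzyme (1.60 ± 0.24, adjusted p = 0.00125), Ckm, the muscle creatine kinase (1.98 ± 0.31, adjusted p = 0.00177), and Mb, the oxygen store (1.60 ± 0.28, adjusted p = 0.00371). Of 31 other tested sarcomere and Z-disc genes, 1 rose, Tmod4, which caps thin filaments in skeletal muscle (1.59 ± 0.32, adjusted p = 0.00957), and 1 fell, the LIM protein gene Fhl1 (-0.63 ± 0.15, adjusted p = 0.0213), counts near the background, with a median of 0.15. Unc45b, a myosin chaperone, had 0.95 ± 0.26 (adjusted p = 0.0535).

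Of 15 tested non-muscle and smooth muscle counterparts, 0 rose and 0 fell by limma, with 2 higher and 0 lower at an unadjusted p under 0.05 (median 0.08). Vim, the intermediate filament of non-muscle cells, had 0.42 ± 0.12 (adjusted p = 0.0714), and Myl12b and Myl9, non-muscle and smooth muscle light chains, had 0.43 ± 0.15 and 0.97 ± 0.49. Of 12 tested genes of differentiation and fusion, 0 rose and 1 fell. That gene was Chrna1, which encodes part of the muscle acetylcholine receptor (-1.39 ± 0.31, adjusted p = 0.0176), with a median of -0.17. Mef2c, a transcription factor of muscle genes, had 0.96 ± 0.35 (adjusted p = 0.153) and Myod1, the myogenic commitment factor, -0.26 ± 0.16 (adjusted p = 0.477).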
